A study of Rattus norvegicus with 32 samples.

Results

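The mitochondrial ribosomal proteins were described in rat liver after inhaled ozone. They are the 73 genes, of 13438 genes measured by a probe set with 1 annotated gene, whose annotation symbol is Mrpl or Mrps followed by a number. Each gene was read from its brightest probe set over the 32 arrays, and 99 probe sets matched members in all. The members comprise 48 proteins of the large ribosomal subunit and 25 of the small subunit. By general knowledge of the ribosome's structure, 42 were counted as having a bacterial homolog and 31 as additions found in mitochondria. All 73 passed the filter on dim probe sets and were tested among 11626 genes. Their mean intensities lay between 193 and 1219 units, above the 54.3 to 92.0 units (array medians) of the probes for nonspecific binding. Heart and skeletal muscle markers also averaged above that level (114 units for Ckm to 355 units for Myh6), so it does not show that the dimmest members were detected.

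Liver RNA came from male Wistar Kyoto rats aged 10 weeks and weighing 250 to 300 g, which breathed 1 ppm ozone or filtered air for 6 h per day. At the end of day 1 there were 6 ozone and 6 air samples, and at the end of a 2-day exposure there were 5 ozone and 5 air samples. A further 5 ozone and 5 air samples were taken 18 h after a 2-day exposure. Every sample was hybridised to an Affymetrix HT-Rat-230 PM array, on which the readings of a set of short probes per transcript are combined into a signal. No label states that the arrays come from separate animals, so p-values measure only the spread between these arrays, and the number of arrays limits their precision.

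The mitochondrial ribosome translates the small set of messages encoded by mitochondrial DNA, which give core subunits of the respiratory chain and of ATP synthase. Its RNA is made inside the mitochondrion, while all of its proteins are encoded in the nucleus, made in the cytosol and imported. The small subunit decodes the message and the large subunit joins the amino acids, and both carry many proteins with no bacterial counterpart. Liver cells are rich in mitochondria, where fatty acid oxidation and the opening steps of urea synthesis take place.

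Array medians lay between 147 and 161 units, and pairs of arrays correlated between 0.966 and 0.997 over genes. Gene-centred values of 25 of the 32 arrays correlated best with the mean of their own group, and those of 7 with another group. Among the 7, day 2 air replicate 5 correlated best with day 2 ozone (r = 0.60, against -0.52 with the other day 2 air arrays), and day 2 ozone replicate 5 with 18 h ozone (r = 0.66, against -0.25 with its own group). Both were kept in their labelled groups, and whether the labels of these day 2 samples are right was not tested, a doubt that touches every day 2 value below. Day 2 air replicate 1 correlated best with day 1 air (r = 0.66, against -0.02 with its own group). Replicate 1 of the 18 h air group correlated best with 18 h ozone (r = 0.70, against 0.26 with its own group). Day 1 air replicate 5 correlated best with day 2 air, and day 2 air replicate 2 and 18 h air replicate 5 with day 1 air. Nonspecific-binding signal was low on day 1 ozone replicate 3 (66.1 units) and day 1 air replicate 2 (54.3 units), against 85.2 to 92.0 units elsewhere. The actin 3′ to 5′ ratio was 3.50 on 18 h ozone replicate 5, against 2.16 to 2.89 elsewhere. Hepatocyte markers averaged 2667 to 13189 units, while 18 of 31 tested markers of 8 other cell types or tissues averaged under 200 units. Of 38 markers tested, 6 fell after ozone on day 1 at limma's adjusted p (15.8%, where 16.4% of all genes fell) and 0 rose, also at an unadjusted p under 0.05. The falls were in Asgr1 of hepatocytes, Adgre1 of macrophages, Lrat of stellate cells, Stab2 and Tek of endothelium, and Epcam of bile ducts, while 18 of the 38 markers had a difference above 0. The mean of the 6 stellate cell and fibroblast markers, relative to all arrays, was -0.08 to 0.04 (log2) on day 1 ozone arrays and 0.03 to 0.13 on day 1 air arrays. That of the 3 bile duct markers tested was -0.13 to -0.04 on day 1 ozone arrays and -0.09 to 0.10 on day 1 air arrays. The part of these marker values in the results below was not tested, and in whole liver fewer cells of a type and less RNA per cell cannot be told apart.

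At the end of day 1, mitochondrial ribosomal protein genes that changed after ozone were mostly higher. Of the 73 members, 20 rose, 4 fell and 49 did not pass limma's adjusted p threshold of 0.05, so 32.9% were called, where 29.5% of all genes tested were called. The rises made up 27.4% of members, where 13.1% of all genes rose. The falls made up 5.48% of members, where 16.4% of all genes fell. Mrps31 (log2 difference 1.09), Mrpl47 (0.95), Mrpl12 (0.49), Mrps35 (0.45) and Mrps2 (0.39) led the rises. Differences of all 73 members ran from -0.25 to 1.09, with a median of 0.03 and 42 above 0, against a median of 0.00 over all genes. The 49 members not called lay between -0.15 and 0.13, and 39 of them lay within 0.1 of 0. Intensities on the 6 ozone and 6 air arrays did not overlap for 18 members, 17 of them higher after ozone, where the groups did not overlap for 16% of all genes. Differences are on the scale of log2(intensity + 16), which understates the change of dim genes.

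**Figure D1:**
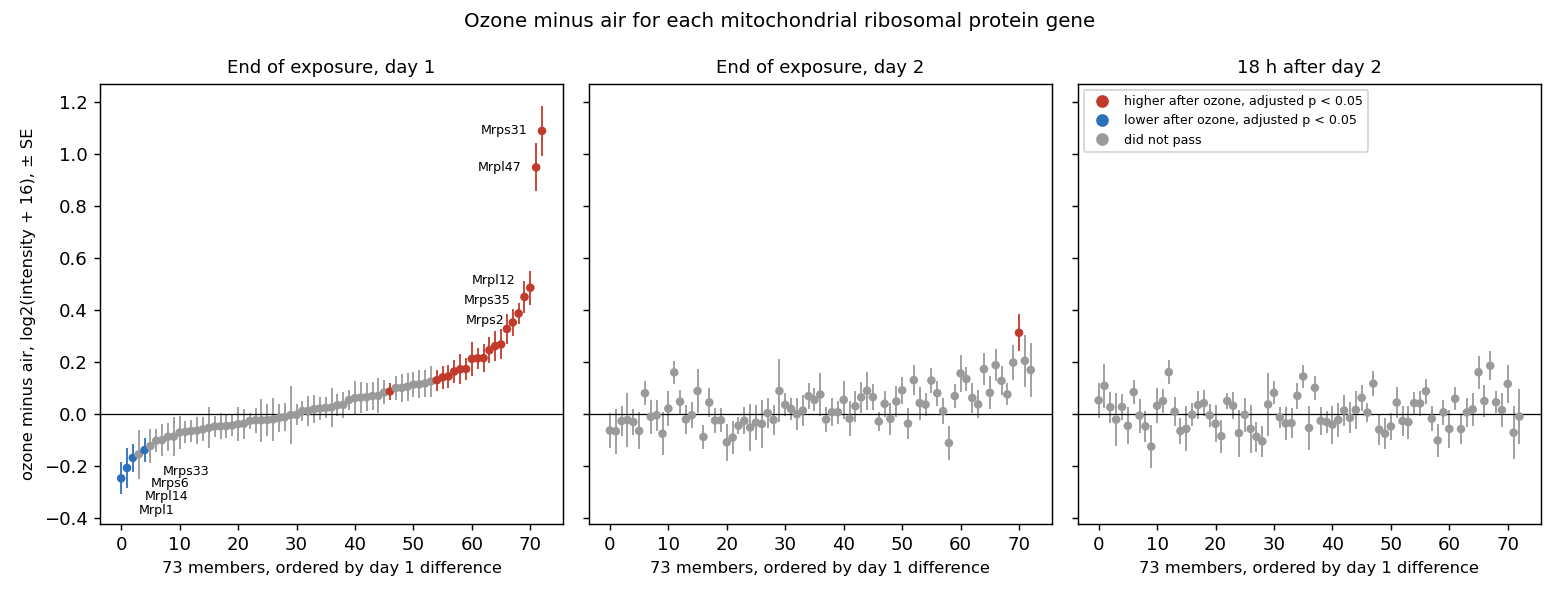
Each point is 1 of the 73 members, with its ozone minus air difference in log2(intensity + 16) and limma's SE on the vertical axis and its rank by day 1 difference on the horizontal axis, at the 3 harvest times. On day 1, 20 members are higher (red) and 4 lower (blue) after ozone, with Mrps31 at 1.09 and Mrpl47 at 0.95, while 1 is coloured at the end of day 2 and 0 at 18 h.

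Mrps31 encodes a small-subunit protein that bacteria lack. On day 1 its intensity was 447 at the lowest, 633 at the median and 727 at the highest over ozone arrays, against 253, 266 and 303 units over air arrays. Every ozone array lay above every air array. The difference was 1.09 ± 0.10 (SE; 2.13-fold; limma adjusted p = 6.64e-09). At the end of day 2 the ozone arrays read 325, 295, 427, 377 and 255 units, against 268, 305, 280, 268 and 346 units on air arrays. There the groups overlapped, with ozone replicates 3 and 4 above all air arrays and ozone replicate 5 below them, and the difference of 0.17 ± 0.10 did not pass (adjusted p = 0.56, limma). At 18 h the values were 273, 277, 277, 274 and 277 units on ozone arrays, against 268, 288, 261, 273 and 299 units on air arrays. The ozone values lay inside the range of the air values, with a difference of -0.01 ± 0.10.

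Mrpl47, the homolog of a bacterial large-subunit protein near the mouth of the peptide exit tunnel, had a like pattern. Its day 1 intensity was 488 at the lowest, 561 at the median and 644 at the highest over ozone arrays, against 255, 281 and 328 units over air arrays. The groups were again fully apart, and the difference was 0.95 ± 0.09 (SE; 1.93-fold; limma adjusted p = 3.62e-08). Day 2 values were 363, 304, 434, 425 and 258 units after ozone, against 321, 320, 288, 260 and 324 units in air. Replicates 1, 3 and 4 of the ozone group stood above all air arrays and replicate 5 below them all, and the difference of 0.21 ± 0.10 did not pass (adjusted p = 0.39, limma), but did without ozone replicate 5 (0.0492). At 18 h the ozone arrays read 258, 280, 267, 264 and 261 units, against 264, 299, 252, 280 and 310 units on air arrays. The groups overlapped throughout, with a difference of -0.07 ± 0.10. Mrps31 and Mrpl47 were each measured by 1 probe set, so no other probe set of either gene was available for comparison.

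The start-site windows of the 3 members with the largest day 1 rises and of Mrpl1, the member with the largest fall, are shown from 250 bases before to 50 bases after the RefSeq start. They come from RefSeq on the GRCr8 build and are written 5′ to 3′ on the transcript's strand. The windows lie at chr16:76324016-76324315 (minus strand) for Mrps31, chr2:117447312-117447611 (minus strand) for Mrpl47, chr10:106256496-106256795 (plus strand) for Mrpl12 and chr14:13663472-13663771 (minus strand) for Mrpl1. Capitals mark matches to any of 3 motifs of factors known to bind promoters of mitochondrial genes in mammals. The motifs are GCGC, any 2 bases and GCGC for NRF1, CCGGAAG for ETS factors such as GABP, and ATGGCGG for YY1.
Mrps31: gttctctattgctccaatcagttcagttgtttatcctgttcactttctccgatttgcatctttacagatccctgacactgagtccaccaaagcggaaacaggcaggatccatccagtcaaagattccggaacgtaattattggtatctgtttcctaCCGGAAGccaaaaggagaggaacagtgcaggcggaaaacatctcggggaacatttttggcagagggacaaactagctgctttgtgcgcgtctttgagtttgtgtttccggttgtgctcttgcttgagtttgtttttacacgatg
Mrpl47: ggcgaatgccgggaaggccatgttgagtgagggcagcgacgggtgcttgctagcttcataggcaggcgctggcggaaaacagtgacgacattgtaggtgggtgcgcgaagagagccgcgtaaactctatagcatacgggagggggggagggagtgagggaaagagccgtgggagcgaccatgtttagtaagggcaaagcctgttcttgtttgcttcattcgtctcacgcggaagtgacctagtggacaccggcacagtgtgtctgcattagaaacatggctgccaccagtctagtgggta
Mrpl12: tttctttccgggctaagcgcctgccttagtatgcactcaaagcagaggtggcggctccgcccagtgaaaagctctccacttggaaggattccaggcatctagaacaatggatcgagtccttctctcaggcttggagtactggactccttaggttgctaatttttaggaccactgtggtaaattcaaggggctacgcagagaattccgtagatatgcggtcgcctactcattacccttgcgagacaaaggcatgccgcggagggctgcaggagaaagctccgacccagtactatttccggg
Mrpl1: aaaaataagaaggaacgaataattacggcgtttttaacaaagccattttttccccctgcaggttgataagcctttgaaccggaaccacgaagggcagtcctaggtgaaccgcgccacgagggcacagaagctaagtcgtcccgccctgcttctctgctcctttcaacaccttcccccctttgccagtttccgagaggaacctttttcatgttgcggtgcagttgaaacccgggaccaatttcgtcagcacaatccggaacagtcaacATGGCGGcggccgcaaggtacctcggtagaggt
The Mrps31 window held an ETS match that starts 94 bases before the start site, and the Mrpl1 window held a YY1 match at base 18 of the transcript. The windows of Mrpl47 and Mrpl12 held none of these letters, which says nothing about the factors themselves.

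Mrpl12 is the stalk protein that recruits translation factors to the large subunit, and in human cells it has also been reported to bind the mitochondrial RNA polymerase. On day 1 it read 884 at the lowest, 978 at the median and 1067 at the highest over ozone arrays, against 648, 680 and 750 units over air arrays. Every ozone array exceeded every air array, with a difference of 0.49 ± 0.07 (SE; 1.40-fold; limma adjusted p = 1.71e-06). Its partner at the base of the stalk, Mrpl10, read 358, 367 and 382 units (lowest, median, highest) on ozone arrays, against 363, 377 and 384 units on air arrays. The Mrpl10 groups overlapped and its difference of -0.03 ± 0.03 did not pass (adjusted p = 0.56, limma).

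Other large-subunit members rose by less. Mrpl15, a homolog of a core bacterial protein, read 1111, 1279 and 1382 units (lowest, median, highest) on ozone arrays, against 1010, 1040 and 1092 units on air arrays, a difference of 0.27. Mrpl43, an addition of the mitochondrial ribosome, read 1226, 1364 and 1440 units after ozone, against 1016, 1117 and 1200 units in air, a difference of 0.26. In both genes the ozone arrays all lay above the air arrays. Mrpl3, whose bacterial homolog reaches towards the peptidyl transferase centre, differed by 0.25, and Mrpl33, the homolog of a small bacterial large-subunit protein, by 0.22. Mrpl4 (0.21) and Mrpl22 (0.16) are homologs of proteins that line the exit tunnel in bacteria. Mrpl35 (0.17) is a further bacterial homolog, while Mrpl49 (0.21), Mrpl44 (0.14), which carries a ribonuclease fold, and Mrpl42 (0.13) are mitochondrial additions. Mrps18a (0.35) and Mrps30 (0.17) bear small-subunit names but sit in the large subunit. Limma's adjusted p for these 12 genes lay between 5.2e-06 for Mrps18a and 0.0237 for Mrps30.

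Among small-subunit members besides Mrps31, Mrps35 is a mitochondrial addition and rose on day 1. It read 747 at the lowest, 842 at the median and 865 at the highest over ozone arrays, against 559, 603 and 629 units over air arrays. The groups did not overlap, and the difference was 0.45 ± 0.06 (SE; 1.37-fold; limma adjusted p = 1.89e-06). Mrps2, the homolog of a bacterial protein that joins the small subunit late in its assembly, read 329, 361 and 368 units (lowest, median, highest) after ozone, against 253, 263 and 292 units in air. Its groups were apart too, with a difference of 0.39 ± 0.04 (1.31-fold; limma adjusted p = 4.04e-08). Mrps34 (0.33), an addition whose mutation in mice is known to destabilise the small subunit, read 716, 856 and 912 units after ozone, against 626, 675 and 699 units in air. Mrps17, a bacterial homolog, differed by 0.15 and Mrps25, an addition, by 0.09, the smallest of the 20 rises. Mrps12, the homolog of the decoding-centre protein, read 548, 599 and 611 units on ozone arrays, against 507, 537 and 596 units on air arrays, and its difference of 0.10 ± 0.06 did not pass (adjusted p = 0.18, limma). With quantile normalization Mrps12 passed (adjusted p = 0.0146, where the alternatives ran from 0.0146 to 0.305).

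Mammals carry 3 paralogs of the bacterial protein behind the Mrps18 names, and they gave unlike values on day 1. Mrps18a read 469, 491 and 555 units (lowest, median, highest) on ozone arrays, against 368, 391 and 398 units on air arrays. These groups did not overlap, and the difference was 0.35 ± 0.05 (1.28-fold). Mrps18b read 577, 645 and 721 units after ozone, against 564, 601 and 655 units in air, and Mrps18c read 392, 488 and 584 units, against 386, 499 and 614 units. Both overlapped widely, and their differences of 0.11 ± 0.05 and 0.00 ± 0.11 did not pass (adjusted p = 0.11 and 0.99, limma). Mrps18b passed with quantile normalization (adjusted p = 0.0094, where the alternatives ran from 0.0094 to 0.208) and without day 1 ozone replicate 6 (0.0345). The differences between the paralogs were not tested.

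The 4 members that fell on day 1 changed less than the leading rises. Mrpl1, whose bacterial homolog forms the stalk that guides the leaving tRNA, read 445, 478 and 533 units (lowest, median, highest) after ozone, against 531, 578 and 611 units in air. The groups overlapped only at the highest ozone array, and the difference was -0.25 ± 0.06 (0.843-fold; limma adjusted p = 0.0027). Mrpl14, at the face where the subunits meet, read 337, 344 and 396 units on ozone arrays, against 376, 425 and 432 units on air arrays, with overlap and a difference of -0.21 ± 0.08 (adjusted p = 0.0452). Its adjusted p was between 0.0764 and 0.0889 when any of ozone replicates 2, 3, 4 and 6 or air replicates 2, 3, 4 and 6 was left out. Mrps6, a bacterial homolog, read 220, 232 and 253 units after ozone, against 254, 262 and 288 units in air. Its groups were just apart, the difference was -0.17 ± 0.05, and limma's adjusted p was 0.0179, or 0.0528 without air replicate 4. Mrps33, an addition, read 716, 768 and 831 units after ozone, against 819, 845 and 873 units in air. These overlapped, with a difference of -0.14 ± 0.04 and a limma adjusted p of 0.0185, or 0.055 without ozone replicate 2. The number of falls was 2 without air replicate 4 and 2 without ozone replicate 2.

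**Figure D2:**
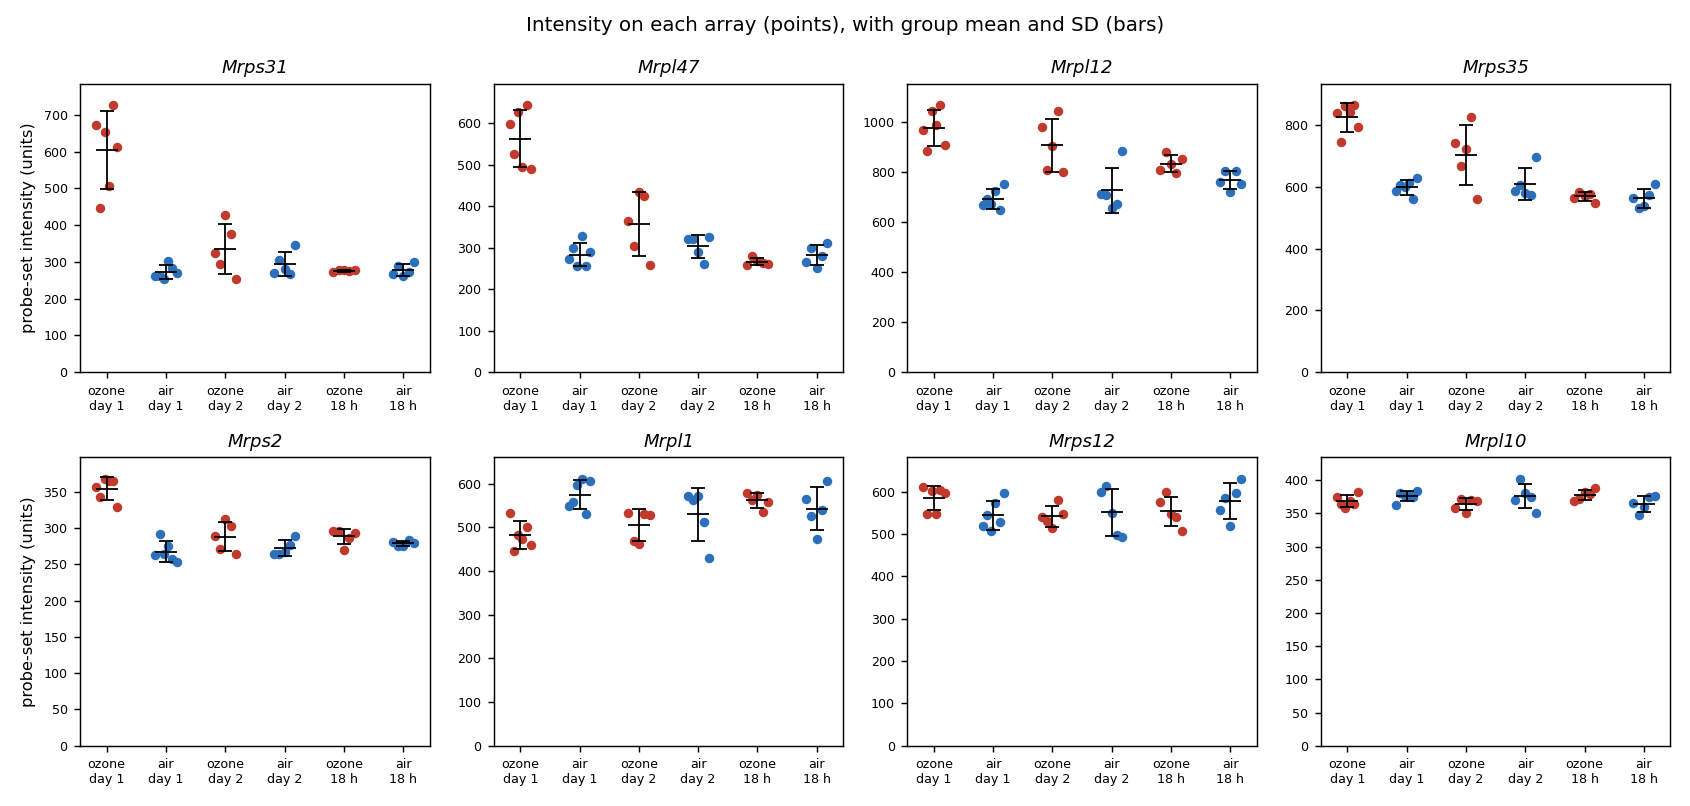
Points are probe-set intensities (units, linear axis from 0) on each array for 8 members in the 6 groups, ozone in red and air in blue, with the group mean and SD in black. Mrps31, Mrpl47, Mrpl12, Mrps35 and Mrps2 have every day 1 ozone array above every day 1 air array, and Mrps12 and Mrpl10 overlap at all 3 times.

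Both subunits and both evolutionary classes held risen members on day 1, where 13.1% of all genes rose and 16.4% fell. In the large subunit 14 of 48 members rose and 2 fell, with a median difference of 0.06, and in the small subunit 6 of 25 rose and 2 fell, with a median of 0.00. Among homologs of bacterial proteins 10 of 42 rose and 3 fell, and among mitochondrial additions 10 of 31 rose and 1 fell. Mrps18a, though a paralog of a bacterial protein, was counted among the additions. For comparison, 2 of 37 cytosolic ribosomal protein genes rose and 1 fell, with a median of -0.07. Of 75 nuclear-encoded subunits of oxidative phosphorylation, 19 rose and 2 fell, with a median of 0.05. Subunits that the mitochondrial ribosome itself makes are encoded by mitochondrial DNA and are not in this set. The mean of the family's gene-centred values was -0.02 to 0.13 (log2) on day 1 ozone arrays, against -0.09 to 0.04 on day 1 air arrays, so the family as a whole overlapped between the groups. No test was made of the difference between these sets.

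The other probe sets of the same genes did not always follow the brightest. Among 26 such probe sets of 20 members, 5 rose on day 1 and 0 fell in a fit of every probe set singly, where 22.6% of all probe sets were called (10.1% higher and 12.5% lower). The other 21 did not pass. A dimmer probe set of Mrps14, a small-subunit bacterial homolog, rose by 0.38 (limma adjusted p = 2.11e-06), while its brightest differed by 0.01 (adjusted p = 0.86). Mrpl57, an addition of the large subunit, had 0.21 on its dimmer and -0.01 on its brightest probe set. Mrpl40, a further addition, had 0.17 on its dimmer probe set and 0.13 on its brightest, which did not pass. The brightest Mrpl12 probe set rose by 0.49, another by 0.14, and the third had 0.06 and did not pass. Both other probe sets of Mrps2 had small differences (0.04 and 0.06) that did not pass, so its rise rests on 1 probe set of 3. Mrps14, Mrpl57 and Mrpl40 were chosen for mention after their values were seen.

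Genes that work with the mitochondrial ribosome were mixed on day 1. On 6 lists of such genes, 30 of 90 passed limma's adjusted p, where 29.5% of all genes did (13.1% higher and 16.4% lower). Of 7 tested ribosome proteins with other names, 2 rose and 0 fell, namely Aurkaip1 (0.24) and Ptcd3 (0.16) of the small subunit, and 2 of the 7 (Mrpl57 and Mrpl58) are also members. Among 25 assembly factors 6 rose and 0 fell, with the smallest p for Rcc1l (0.24), a factor bound to mitochondrial ribosomal RNA, and Mrm3 (0.16), a methyltransferase of that RNA. Among 12 translation factors 1 rose and 2 fell. The falls were Mtfmt (-0.38), which formylates the initiator methionine, and Mtrf1l (-0.22), a release factor. Of 16 aminoacyl-tRNA synthetases and related enzymes 2 rose, Qrsl1 (0.34) and Vars2 (0.27), and 2 fell. Among 19 genes of mitochondrial DNA and RNA, 6 rose and 2 fell, with the smallest p for Polrmt (0.48), the mitochondrial RNA polymerase, and Tbrg4 (0.44), an RNA-binding protein. Of 12 regulators of mitochondrial biogenesis, 3 rose and 5 fell, with the smallest p for Esrra (0.49), a nuclear receptor, and Ppargc1a (0.86), its coactivator. Esrra read 450, 460 and 585 units (lowest, median, highest) on ozone arrays, against 333, 341 and 346 units on air arrays, so all ozone arrays lay above all air arrays. At the end of day 2 and at 18 h, 0 of the 90 genes on these 6 lists passed limma's adjusted p, and 13 and 8 had an unadjusted p under 0.05. Of all genes, 13% on day 2 and 12.1% at 18 h had an unadjusted p under 0.05.

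**Figure D3:**
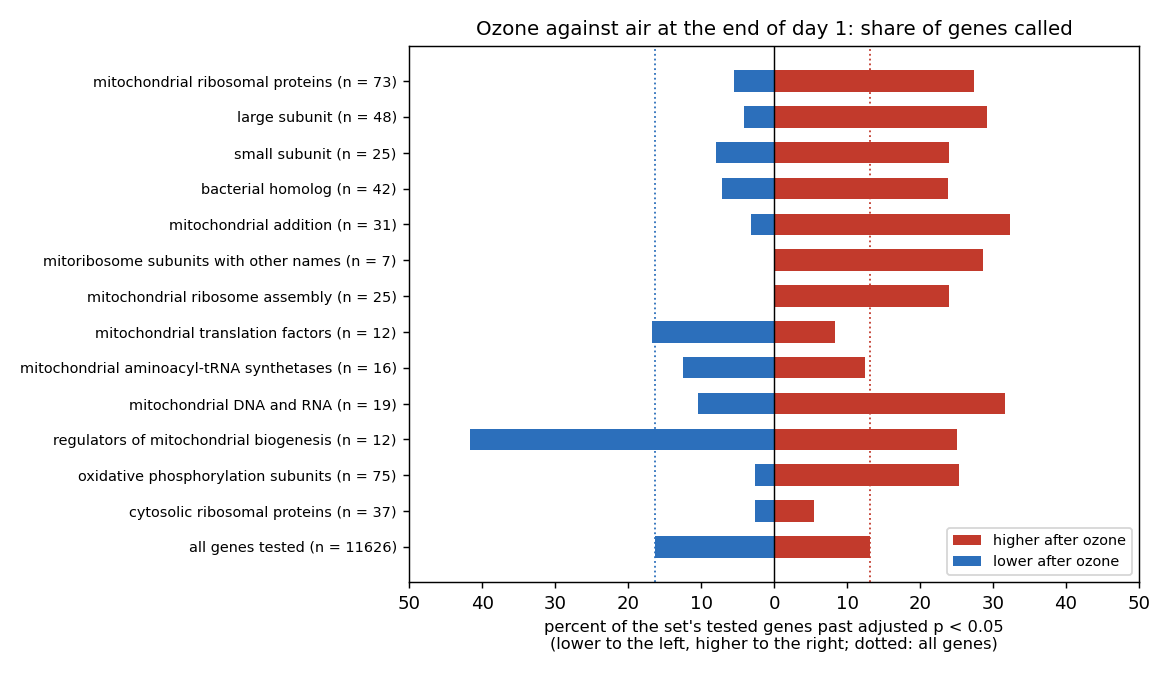
Bars give the percent of each set's tested genes that passed adjusted p 0.05 on day 1, with genes higher after ozone to the right and lower to the left, and dotted lines mark the shares over all genes (13.1% higher, 16.4% lower). The mitochondrial ribosomal proteins have 27.4% higher and 5.48% lower, and the cytosolic ribosomal proteins 5.41% higher and 2.7% lower.

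Genes beside the risen members moved in both directions on day 1. Gene order was taken from RefSeq on GRCr8, in which all 73 members matched, and the neighbours named here were chosen after their values were seen. The next gene to Mrps31, on the opposite strand and pointing away from it, is Slc25a15, the mitochondrial ornithine carrier of the urea cycle. Slc25a15 read 3905, 4604 and 4739 units (lowest, median, highest) on day 1 ozone arrays, against 1495, 1669 and 2258 units on day 1 air arrays. The groups did not overlap, and the difference was 1.31 ± 0.18 (limma adjusted p = 1.58e-06), while Smim19 on the other side had 0.07 and did not pass. Mrpl47 overlaps Ndufb5, a complex I subunit that points away from it, and Actl6a, and their differences of 0.08 and -0.01 did not pass. Slc25a10, the dicarboxylate carrier next to Mrpl12, rose by 0.27. Twnk, the mitochondrial DNA helicase that overlaps Mrpl43, rose by 0.36, as did Immt, a scaffold of the cristae, beside Mrpl35. The other risen neighbours of risen members were Wdfy1 beside Mrpl44 (0.42), Icam1 beside Mrpl4 (0.39), Nudt16 beside Mrpl3 (0.24) and Slc4a1ap beside Mrpl33 (0.18). In contrast, Socs2 next to Mrpl42 fell by 0.95 and Vegfa next to Mrps18a by 0.30. Nme3 beside Mrps34 (-0.24) and Ppp1r26 beside Mrps2 (-0.21) also fell. In all, 8 of 35 tested neighbours of 18 risen members rose and 4 fell, and 9 of 75 tested neighbours of 48 uncalled members rose and 13 fell, where 13.1% of all genes rose and 16.4% fell. Of the 5 tested neighbours of 3 fallen members 2 fell, Slc5a3 (-0.38), which overlaps Mrps6 on the same strand, and Cnot6l (-0.43) beside Mrpl1. Whether the probe sets use strand to separate overlapping genes was not examined.

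**Figure D4:**
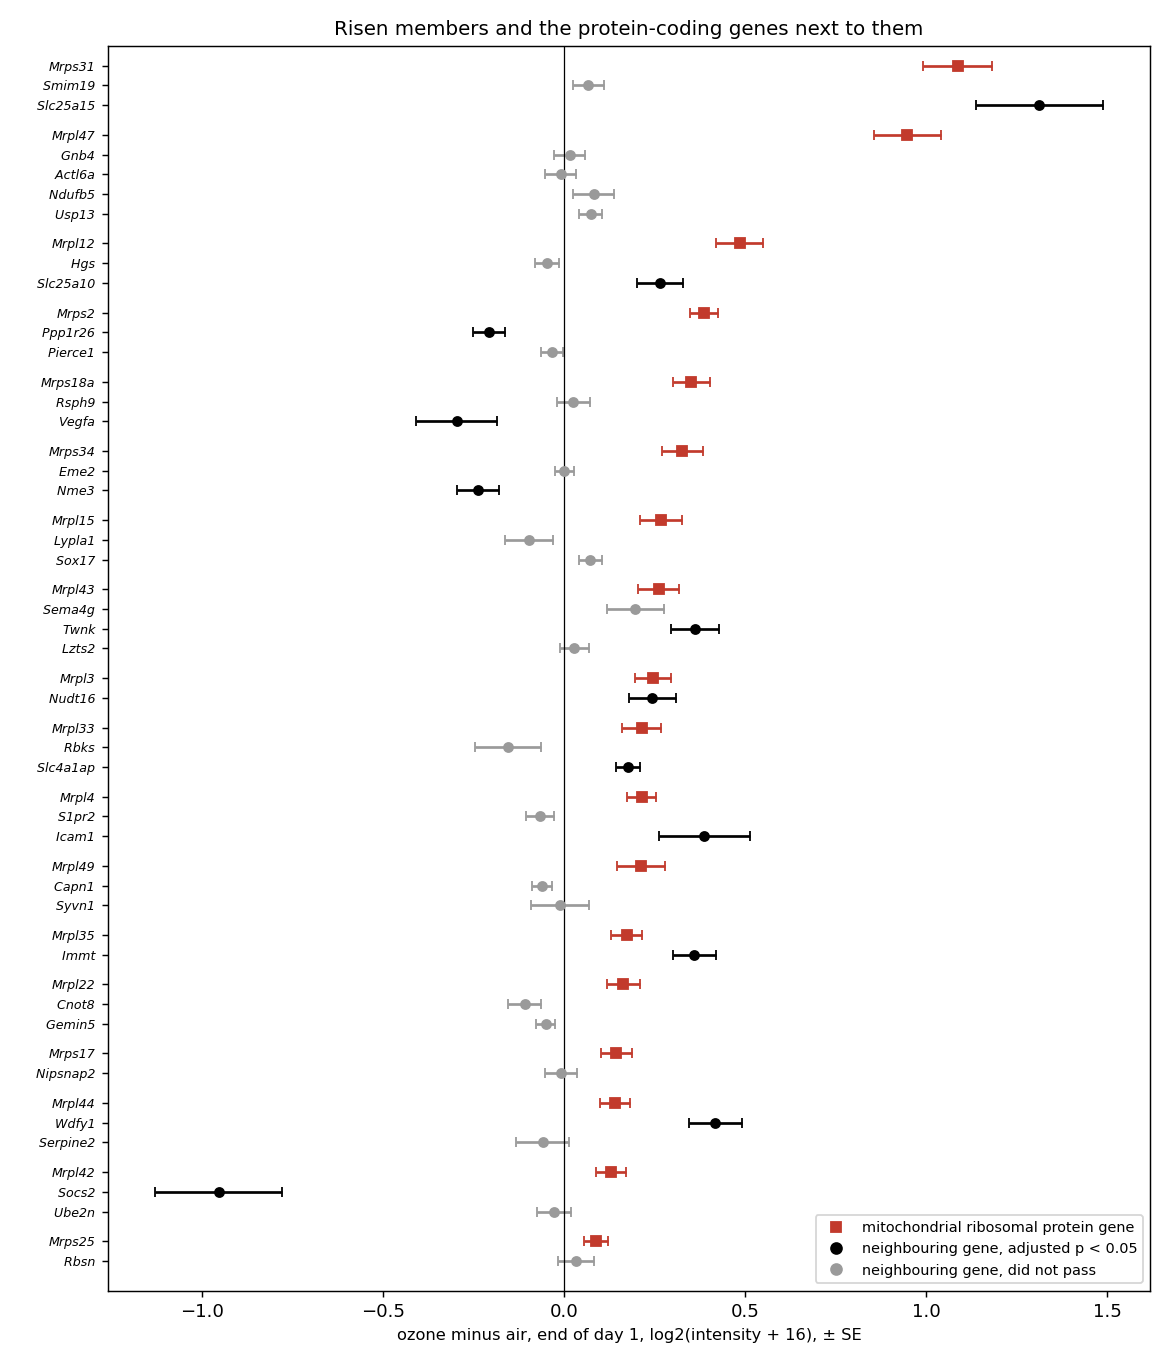
Day 1 ozone minus air differences in log2(intensity + 16) with limma's SE for 18 risen members (red squares) and, below each, the tested protein-coding genes that overlap it or lie next to it (black where adjusted p was under 0.05, grey otherwise). Slc25a15 at 1.31 lies beside Mrps31 at 1.09, and the neighbours of Mrpl47 did not pass.

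Start-site windows were held for 59 of the 73 members. Among them 20.3% held the NRF1 motif, 33.9% the ETS motif and 22% the YY1 motif on either strand, against 6.15%, 9.22% and 5.22% of all 27457 windows of the same length. The YY1 letters hold ATGG and can coincide with a start codon, and no motif contains another. At least 1 motif was present in 61% of member windows, against 17.9% of all windows. The windows of all genes were not limited to genes tested here or matched for base content. Whether the higher shares are particular to the members was therefore not tested. Divided by the day 1 result, 9 of 15 windows of risen members, 2 of 4 of fallen members and 25 of 40 of uncalled members held at least 1 motif. An ETS match was present in 5 of the 15 risen, 0 of the 4 fallen and 15 of the 40 uncalled windows. A match is a stretch of letters and not evidence of binding.

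At the end of day 2, 1 of 73 members rose and 0 fell at limma's adjusted p, where 0.705% of all genes were called (0.464% higher and 0.241% lower), and 10 members had an unadjusted p under 0.05 (13.7%, against 13% of all genes). Member differences ran from -0.11 to 0.31 with a median of 0.03. The gene that rose was Mrpl12, which read 978, 805, 903, 1043 and 800 units on ozone arrays, against 712, 709, 656, 672 and 883 units on air arrays. Air replicates 1 to 4 lay below all ozone arrays, while air replicate 5 lay among the ozone values. The Mrpl12 difference was 0.31 ± 0.07 (SE; 1.24-fold; limma adjusted p = 0.0451). Its adjusted p was between 0.0878 and 0.186 when any of ozone replicates 1, 3 and 4 or air replicates 1, 2, 3 and 4 was left out. Without air replicate 5 the members that rose numbered 6, where 8.41% of all genes were called (4.13% higher and 4.28% lower), and without ozone replicate 5 they numbered 5, where 4.35% were called (2.86% higher and 1.5% lower). Without the air replicates 1, 2, 3 or 4 or the ozone replicates 1, 3 or 4, 0 members rose. Without 4 arrays that earlier results on these data placed nearer another group (day 2 ozone 5, day 2 air 5, and 18 h air 1 and 5), 11 members rose and 3 fell, where 13.6% of all genes were called (6.47% higher and 7.09% lower). Without all 7 arrays found here to lie nearer another group, a choice made after seeing the data, 9 members rose and 0 fell, where 8.58% of all genes were called (5.01% higher and 3.57% lower). That fit took day 2 air replicates 1, 2 and 5 out, so only air replicates 3 and 4 were set against ozone replicates 1 to 4. With arrayWeights, which gives less weight to arrays far from their group, 13 rose and 3 fell, where 17.5% were called (9.19% higher and 8.29% lower). Leaving out such arrays, or giving them less weight, draws the groups apart by its construction.

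Most members lay near 0 on day 2, with 59 of 73 within 0.1 of it. Mrps35 and Mrpl34 had larger differences that did not pass. Mrps35 read 743, 668, 723, 826 and 562 units on day 2 ozone arrays, against 586, 606, 580, 574 and 698 units on day 2 air arrays. The fifth array of each group stood on the other group's side, and the difference of 0.20 ± 0.07 did not pass (adjusted p = 0.13, limma). It passed without air replicate 5 (0.0161) and without ozone replicate 5 (0.0113). Mrpl34, a small bacterial homolog of the large subunit, read 648, 617, 614, 637 and 636 units after ozone, against 601, 595, 571, 516 and 532 units in air. It was the 1 member whose day 2 groups did not overlap, where the groups did not overlap for 1.49% of all genes, and its difference of 0.16 ± 0.05 did not pass (adjusted p = 0.0727, limma). Mrpl34 was chosen for mention after its values were seen. Of the 24 members called on day 1, 22 had the same sign on day 2 (91.7%), where 80% of all genes called on day 1 did. The 24 were mostly rises, unlike the calls over all genes. Among rises alone, 90% of members kept the sign, where 85.1% of all genes risen on day 1 did. The 20 members that rose on day 1 had a median difference of 0.23 then and 0.11 on day 2.

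At 18 h after day 2, 0 of 73 members passed limma's adjusted p, where 1.17% of all genes were called (0.86% higher and 0.31% lower), and 6 members had an unadjusted p under 0.05 (8.22%, against 12.1% of all genes). Member differences ran from -0.12 to 0.19 with a median of 0.01. The smallest p-values belonged to Mrpl23, whose bacterial homolog lies at the tunnel exit, Mrps18a, and Mrps24, a bacterial homolog of the small subunit. Mrpl23 read 627, 596, 664, 645 and 641 units on ozone arrays, against 609, 539, 520, 573 and 590 units on air arrays. Ozone replicate 2 lay below air replicate 1, and the other ozone arrays lay above all air arrays (0.16 ± 0.05; adjusted p = 0.0741, limma, and 0.0219 without air replicate 1). Mrps18a read 449, 474, 447, 474 and 466 units after ozone, against 426, 399, 375, 401 and 421 units in air. Its groups did not overlap, which held for 1 member and for 2.76% of all genes, and the difference was 0.19 ± 0.06 (adjusted p = 0.0948, limma). Mrps24 read 818, 819, 740, 816 and 789 units after ozone, against 716, 699, 683, 730.5 and 766 units in air, overlapping at ozone replicate 3 (0.14 ± 0.04; adjusted p = 0.1, limma). Without 18 h air replicate 1 the number of risen members was 1, and without the same 4 arrays it was 6, where 4.95% of all genes were called (3.72% higher). Without all 7 it was also 6, where 5.11% were called (3.81% higher and 1.3% lower), and with arrayWeights it was 2, where 5.28% were called (3.69% higher and 1.59% lower). Of the 20 members that rose on day 1, 14 had a positive difference at 18 h, and 0 of the 4 that fell had a negative one. The 14 of 24 with the sign of day 1 were 58.3%, where 40.5% of all genes called on day 1 kept it. The 24 were mostly rises, and 60.6% of all genes tested had a difference above 0 at 18 h. Among rises alone, 70% of members kept the sign, where 47.9% of all genes risen on day 1 did.

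The ozone effect itself differed between the end of day 2 and the end of day 1 for 4 members, 1 higher and 3 lower on day 2, where 5.09% of all genes were called (3.13% higher and 1.96% lower). The Mrps31 effect was lower by 0.92 (day 2 minus day 1, -0.92 ± 0.14; limma adjusted p = 0.00101), and that of Mrpl47 by 0.74 (-0.74 ± 0.14; adjusted p = 0.00324). The effect on Mrps2 was also lower on day 2 (-0.31 ± 0.06; adjusted p = 0.00324). Mrps2 read 289, 272, 313, 303 and 265 units on day 2 ozone arrays, against 265, 264, 267, 276 and 289 units on day 2 air arrays, so its groups overlapped there. For Mrpl34 the effect was higher on day 2 (0.23 ± 0.06; adjusted p = 0.0256), and its day 1 intensities were 495, 539 and 571 units (lowest, median, highest) after ozone, against 541, 565 and 581 units in air. Mrpl12 did not pass this test (-0.17 ± 0.10; adjusted p = 0.34, limma). Slc25a15, beside Mrps31, had a lower effect on day 2 (-0.90 ± 0.26; adjusted p = 0.0382). Without day 2 air replicate 4, day 2 air replicate 5 or day 2 ozone replicate 5, 0 members had a higher effect on day 2, and without day 2 air replicate 1 there were 2. The number with a lower effect was 7 without day 2 ozone replicate 4 and 5 without day 1 ozone replicate 1. No share over all genes was set beside these counts, which are not results about the members. Without all 7 arrays nearer another group, Mrps31 and Mrps2 had a lower effect and Mrpl34 a higher one, and Mrpl47 did not pass. Only replicates 3 and 4 of day 2 air were left in that fit.

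Between 18 h and the end of day 2, 0 members differed in the ozone effect by limma, where 0.0086% of all genes were called, and 2 had an unadjusted p under 0.05 (2.74%, against 8.69% of all genes). The air groups were also set against each other. Of day 2 air set against day 1 air, 0 members passed limma's threshold (0.0086% of all genes), and 0 had an unadjusted p under 0.05 (against 6.66% of all genes). Of 18 h air set against day 2 air, 0 members passed (0.12% of all genes, 0.086% higher and 0.0344% lower). There 5 had an unadjusted p under 0.05 (6.85%, against 9.41% of all genes). Without day 2 air replicate 1 or 18 h air replicate 5, 1 member was higher in 18 h air than in day 2 air, with no share over all genes set beside it.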

How the data were processed

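Probe-set intensities of 32 rat liver arrays were used as deposited, on a linear scale from 30.5 to 15558 units with no missing value. Per the submitters' processing notes, the authors made the intensities in Affymetrix Expression Console by the PLIER method. On tool versions, scaling and correction for background, nothing is given in the sources used here, and background left in the values shrinks fold changes of dim genes.

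Groups came from the sample titles. Of 31139 probe sets, 97 controls, 11407 without an annotated gene and 572 with several genes were left out, which leaves 19063 probe sets of 13438 genes. Probe sets with a mean below the 25th percentile were removed, and the brightest per gene was kept (11626 genes). The deposited intensities were transformed to log2(intensity + 16) and fitted in R 4.3.3 with limma 3.58.1 (lmFit, eBayes with trend). The 6 group means were the model's only terms, without a block, with two-sided p-values adjusted by the Benjamini-Hochberg method over all genes tested. Contrasts were ozone minus air at 3 harvest times, 2 changes of that effect and 2 comparisons between air groups. Same-numbered arrays deviated with correlations of -0.58 to 0.26, with 2 of 16 pairs above 0.1. The labels do not say whether the numbers pair samples, and these correlations cannot exclude it. The fit was tested on simulated data. Alternatives were 16 other settings and leaving out each of the 32 arrays.

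The members and lists were chosen with earlier results of these data known. Named are the 5 largest rises and falls past the threshold per ozone comparison, or the 3 smallest p-values where none passed. Also named are the 3 smallest p-values past the threshold in other contrasts, Mrpl12, Mrpl10, Mrps12, the Mrps18 paralogs, and 2 genes per list by day 1 p-value. All other called members were added for completeness. Neighbours and start-site windows came from RefSeq on GRCr8, and no build is named with the array values. Figures used matplotlib 3.10.9, numpy 2.4.6 and pandas 2.3.3 in Python 3.11.15.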

Additional observations from a re-analysis of the deposited data

Results flagged for a closer look

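Single arrays stood far from the rest of their group in 6 of 96 sets of values examined (16 named members in 6 groups), where chance gives about 1 in 20, or 4.8. On day 2 air replicate 5, Mrpl12 read 883 units (656 to 712 units on the other day 2 air arrays) and Mrps18a read 466 units (384 to 399). On the same array Mrps35 read 698 units (574 to 606) and Mrps33 read 705 units (835 to 889). On 18 h air replicate 3, Mrps18c read 413 units (527 to 564 on the other 18 h air arrays) and Mrps6 read 253 units (288 to 302).

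The ozone effect differed between day 2 and day 1 for 4 members (5.48%) by limma's test of the difference itself, where 5.09% of all genes were called. The differences of effect, day 2 minus day 1, were -0.92 for Mrps31 (adjusted p = 0.00101), -0.74 for Mrpl47 (adjusted p = 0.00324), -0.31 for Mrps2 (adjusted p = 0.00324) and 0.23 for Mrpl34 (adjusted p = 0.0256).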

How the results depend on the processing

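On day 1, 19 to 28 members rose and 2 to 5 fell over the 16 other settings, and 18 to 22 rose and 2 to 4 fell when single arrays were left out. The falls numbered 2 without the 2 arrays of low nonspecific signal, a choice made after seeing the data. Day 2 counts depended on the setting. With the main setting 1 member rose, and 0 rose with no filter on dim probe sets, with the replicate block, with only the groups compared, without the 2 arrays of low nonspecific signal or without the array of highest actin ratio (the last 2 chosen after seeing the data). With array medians aligned 2 rose, and with arrayWeights 13 rose and 3 fell, where 17.5% of all genes were called (9.19% higher and 8.29% lower). Leaving out 4 arrays taken from earlier results on these data as nearer another group (day 2 air 5, day 2 ozone 5, 18 h air 5 and 18 h air 1) gave 11 rises and 3 falls. Of those 11, 9 also rose on day 1, which is 81.8% of them and 45% of the 20 day 1 rises. Leaving out all 7 arrays found nearer another group, chosen after seeing the data, gave 9 rises on day 2, 6 at 18 h, 1 higher and 3 lower members for the effect at 18 h minus day 2, and 1 higher for 18 h air against day 2 air. In that fit day 2 air held only replicates 3 and 4. Leaving out single arrays gave 0 to 6 day 2 rises. At 18 h, 1 member rose with every probe set fitted singly, 2 with arrayWeights and 6 without the 4 arrays, and 0 to 1 without single arrays. For the effect on day 2 minus day 1, lower members numbered 6 with quantile normalization, 5 with every probe set fitted singly, 5 with arrayWeights and 3 to 7 without single arrays. Higher members numbered 0 without the 4 arrays or the 2 of low nonspecific signal, and 0 to 2 without single arrays. For the effect at 18 h minus day 2, arrayWeights gave 4 lower members, and leaving out the 4 arrays gave 2 higher, 3 lower and a median of 0.051, against -0.02 with all arrays. For 18 h air against day 2 air, 1 member was higher with a 50th percentile filter, with array medians aligned or with eBayes without trend, 4 were higher and 1 lower with arrayWeights, 1 was lower without the 4 arrays, and 0 to 1 were higher without single arrays. For day 2 air against day 1 air, 0 members passed under any setting run. Where no share over all genes is printed with a count, calls over all genes may have changed as well, as with arrayWeights on day 2. Such counts are not results about the members.

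With the replicate block, Mrpl14 on day 1 (adjusted p = 0.0632) and Mrpl12 on day 2 (adjusted p = 0.0817) lost their calls, and whether the numbers pair the samples is not known. Mrpl12 on day 2 also lost its call with only the groups compared (0.312), which uses fewer arrays for the spread, and with no filter (0.0518). Mrpl14 on day 1 had 0.0509 with no filter and 0.131 without the 2 arrays of low nonspecific signal, where Mrps33 had 0.0571. Results were counted per named gene, comparison and setting. For named calls, 156 results under other settings kept the call and 9 lost it. Without single arrays, 113 results kept it and 17 lost it. For named genes and comparisons not called, 24 results under other settings and 6 without single arrays gave a call. No direction reversed in a called result. The causes of the other changes were not tested.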

Other observations

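Regulators of mitochondrial biogenesis moved in both directions at the end of day 1. Ppargc1a rose by 0.86 and Ppargc1b by 0.56 (log2), both coactivators of nuclear receptors, and Esrra rose by 0.49. Among the 5 that fell were Myc (-0.61), a growth regulator that drives ribosome synthesis, and Gabpb1 (-0.26), a subunit of the ETS factor GABP. Tfam (-0.17), which packages mitochondrial DNA, Ppara (-0.18), a nuclear receptor of fatty acid oxidation, and Creb1 (-0.27) fell too. The GABP subunit that binds DNA, Gabpa, had 0.17 and Yy1 had -0.13, and neither passed (adjusted p = 0.16 and 0.0924, limma). All of these except Esrra and Ppargc1a were chosen for mention after their values were seen.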
